A study of Mus musculus with 9 samples.

Results

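RNA sequencing of 9 whole-testis samples was examined for 4 genes of the estrogen system, out of 22337 genes measured. These were Gper1, the G protein-coupled estrogen receptor, Esr1 and Esr2, the nuclear estrogen receptors alpha and beta, and Cyp19a1, aromatase. The members were chosen by gene symbol, and all 4 were found. Gper1 was in addition selected on measured values, since it was singled out as lower in homozygous knock-in testes of this same experiment. Its levels by genotype are therefore a description and carry no test.

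All mice were 3 weeks old. The study compared 3 genotypes of Piwil4, the gene of a nuclear PIWI protein that directs transposon silencing in male germ cells, with 3 testis samples each: wild-type (WT-WT), heterozygous (WT-KI, Piwil4WT/R264W) and homozygous (KI-KI, Piwil4R264W/R264W). The knock-in mice were made with CRISPR-Cas9 and carry the missense change R264W in every cell, including germ cells and somatic cells. The labels do not say whether the 3 samples of a genotype are separate animals, so the p-values measure the spread between these samples. Libraries held 17964135 to 24279056 estimated counts, and a count of 3, taken as the limit of detection, was equal to 0.122 to 0.171 CPM, the counts scaled to a common library size by TMM.

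Aromatase converts androgens to estrogens, and in the testis this reaction takes place in Leydig cells, Sertoli cells and germ cells. Estradiol then acts through ESR1 and ESR2, transcription factors that bind DNA as dimers, or through GPER1, a membrane receptor coupled to G proteins. ESR1 is best known in the male tract for the efferent ducts, where it is needed for fluid reabsorption, and it is also present in Leydig and peritubular cells. In whole-testis RNA, fewer cells of a type and less RNA per cell cannot be told apart.

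At 3 weeks the first wave of spermatogenesis is reaching the round spermatid stage, and the testes did not stand at one point of it. A first-wave score was computed for each testis as an average, over 20 round spermatid genes, of log2 CPM. It was 5.79, 3.35 and 2.42 in wild-type replicates 1, 2 and 3. In heterozygous replicates 1, 2 and 3 it was 5.01, 4.36 and 1.75, and in the homozygous replicates 3.39, 4.20 and 5.65. The 3 genotypes overlapped in score, but the lowest homozygous testis stood above the lowest testis of either other genotype. Markers of testicular cells were present in every library. Summed CPM of 11 Leydig cell genes spanned 256 to 527 among wild-type testes, 260 to 372 among heterozygous and 393 to 552 among homozygous testes.

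The upstream sequences of the genes were read from RefSeq on GRCm38.p6, where 4 of 4 members had an entry, with 7 transcription start windows in all. The window of Gper1 is shown because its RNA differed in level between the genotype groups, and that of the upstream start of Cyp19a1 because it held the only match to a nuclear receptor half-site (AGGTCA, or TGACCT on the other strand). Each is 250 bases directly upstream of the start, 5′ to 3′ on the strand of the gene. Capitals mark TATAAA in Gper1, on the plus strand of chr5:139422929-139423178, and the half-site in Cyp19a1, on the minus strand of chr9:54268165-54268414.
Gper1: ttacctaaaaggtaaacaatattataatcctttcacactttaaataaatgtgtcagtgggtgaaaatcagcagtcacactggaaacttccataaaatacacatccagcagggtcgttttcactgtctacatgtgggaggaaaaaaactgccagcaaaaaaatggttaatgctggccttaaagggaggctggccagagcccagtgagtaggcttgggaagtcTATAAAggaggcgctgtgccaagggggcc
Cyp19a1: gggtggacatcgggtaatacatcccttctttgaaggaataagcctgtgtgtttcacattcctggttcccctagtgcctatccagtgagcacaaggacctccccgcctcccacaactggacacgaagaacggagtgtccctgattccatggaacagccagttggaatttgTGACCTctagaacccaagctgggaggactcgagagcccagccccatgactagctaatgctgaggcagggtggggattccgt

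TATAAA, searched on both strands, occurred in 12.4% of 32851 such mouse windows, and the half-site in 14.02%. TATAAA was not particular to Gper1. It was also in the windows of Cyp19a1 at chr9:54228915-54229164 and chr9:54193744-54193993, which are not shown. None of the 7 windows held the palindromic estrogen response element GGTCANNNTGACC, which 0.0639% of all windows held. The cAMP response element TGACGTCA and the GC box GGGCGG were also not found in them, against 1.55% and 32.7% of all windows. These are letter matches in short windows and give no information on binding.

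Levels were compared between genes in FPKM, which scales fragments by gene length and library depth. Esr1 had the highest level of the 4 genes in 9 of 9 testes, from 1.03 to 2.15 FPKM. Cyp19a1 came next in 9 of 9 testes, from 0.39 to 0.71 FPKM. Gper1, from 0.07 to 0.46 FPKM, and Esr2, from 0.05 to 0.28 FPKM, were the lowest, and their order was not fixed, with Gper1 above Esr2 in 6 of 9 testes. The ratio of Esr1 to Cyp19a1 had a median of 2.53 and ran from 1.56 to 4.3, and the ratio of Esr1 to Esr2 had a median of 12.5 and ran from 4.5 to 29.6. The nuclear receptor transcripts in these testes were thus mostly those of Esr1, while Esr2 and Gper1 rested on 4 to 22 counts a library.

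**Figure D1:**
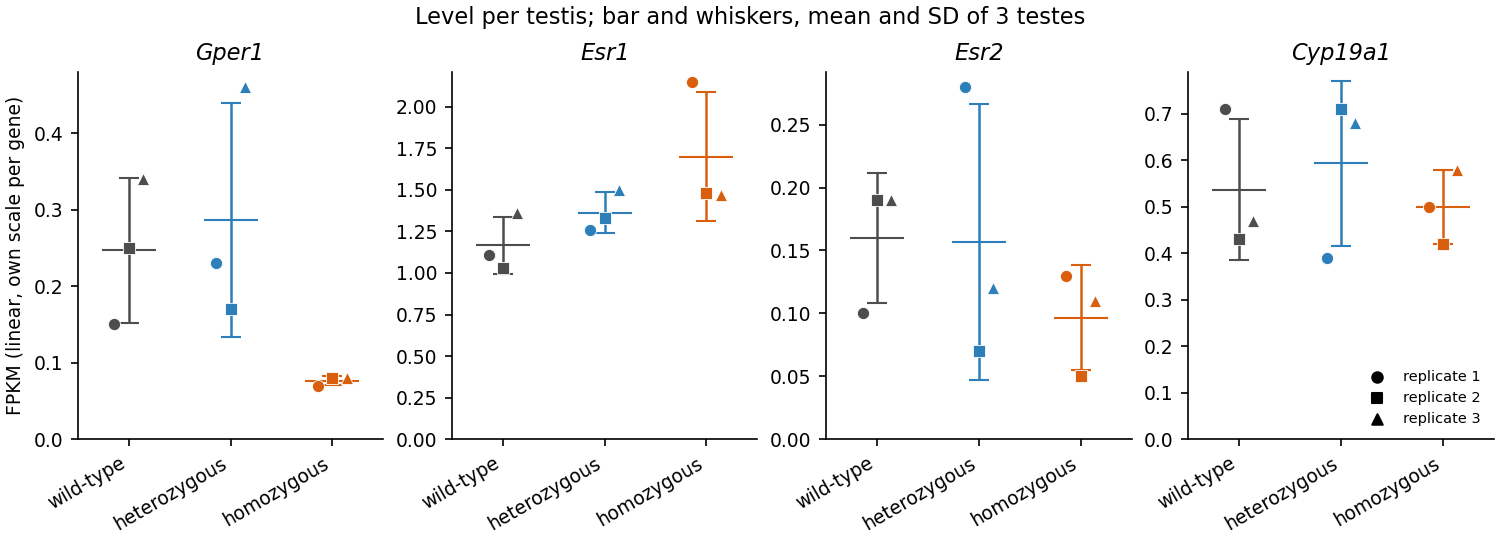
FPKM of each gene (linear vertical axis, its own scale per panel) in each testis, by genotype; symbols are replicates, the horizontal bar is the mean and the whiskers are the SD of 3 testes. The 3 homozygous testes lie at 0.07 to 0.08 FPKM for Gper1, below the other 6, and homozygous replicate 1 stands apart for Esr1 at 2.15 FPKM.

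Gper1 (ENSMUSG00000053647, GRCm38 chr5:139423151-139427800, plus strand) encodes a receptor through which estradiol raises cyclic AMP and activates kinases at membranes. Its estimated counts were 9, 13 and 18 in wild-type, 13, 8 and 22 in heterozygous and 4, 5 and 4 in homozygous replicates 1, 2 and 3. All 3 homozygous testes were below all 6 others, and the wild-type and heterozygous testes overlapped. The 4 or 5 counts of the homozygous testes were just above the limit of 3.

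In CPM, Gper1 was at 0.641 ± 0.226 (SD, n = 3) in wild-type, 0.729 ± 0.377 in heterozygous and 0.204 ± 0.0244 in homozygous testes. The ratio of the homozygous mean to the wild-type mean was 0.318, and to the heterozygous mean 0.279. The heterozygous mean was 1.14 times the wild-type mean. As fitted log2 fold changes these were -1.63, -1.82 and 0.18, and the comparisons share their groups. For scale, among the genes tested 5.58% did not overlap between homozygous and wild-type testes, 7.06% between homozygous and heterozygous, and 5.36% between heterozygous and wild-type. These shares are for pairs of genotypes, in either direction. They cover genes past the count filter, which Gper1 did not pass in the comparisons with homozygous testes. The share of genes with all homozygous testes below all others was not counted.

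The fitted size of the Gper1 difference varied with the testes kept and with the scale. Without heterozygous replicate 3, the highest testis, the log2 difference between homozygous and heterozygous testes was -1.32, and without that replicate the heterozygous against wild-type value was -0.31. On the log2(FPKM + 1) scale the difference was -0.21 to wild-type and -0.25 to heterozygous testes. Gper1 was under the count filter in both comparisons with homozygous testes, so its values there come from the fit of all genes without a filter. Its gene overlaps 3110082I17Rik on the opposite strand, and it is not given whether strand was used in counting. That gene had 195 to 288 counts in all 9 testes, at 9.55 to 12.8 CPM. In CPM the homozygous testes, at 11.3 to 11.8, were inside the range of the others.

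Gper1 was also read against the stage of the first wave. Testes of close score can be set side by side across genotypes, but every homozygous count was below every other count. Any such pair therefore differs in the same direction. At scores of 3.35 and 3.39, wild-type replicate 2 had 13 counts and homozygous replicate 1 had 4. At 5.79 and 5.65, wild-type replicate 1 had 9 counts and homozygous replicate 3 had 4. At 4.36 and 4.20, heterozygous replicate 2 had 8 counts and homozygous replicate 2 had 5. Within the wild-type testes the count was 18 at the lowest score and 9 at the highest, and the heterozygous testes, from the lowest score to the highest, had 22, 8 and 13. The homozygous testes had 4, 5 and 4 counts over a score range of 3.39 to 5.65. With the score as a covariate, the homozygous against wild-type difference was -1.48 and the homozygous against heterozygous one -1.57 on the log2 scale. These values come from the libraries in which Gper1 was selected, so they are a description, and the part of stage was not tested.

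**Figure D2:**
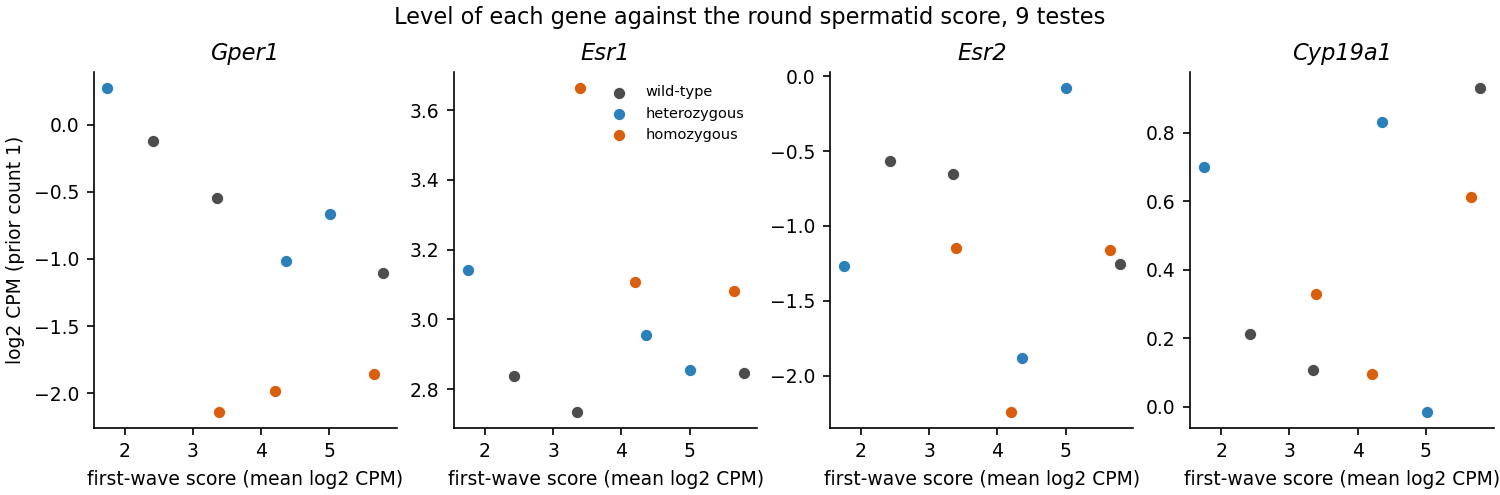
Log2 CPM (prior count of 1, own vertical scale per panel) of each gene against the first-wave score (an average over 20 round spermatid genes, in log2 CPM); each point is a testis, coloured by genotype. The Gper1 points of wild-type testes run downwards from left to right, the heterozygous points do so from the lowest score to the middle one only, and the 3 homozygous points lie below them at scores of 3.39 to 5.65.

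Esr1 (ENSMUSG00000019768, GRCm38 chr10:4611593-5005614, plus strand), the main nuclear estrogen receptor by level, had 154, 135 and 147 counts in wild-type, 160, 138 and 167 in heterozygous and 282, 210 and 148 in homozygous replicates 1, 2 and 3. Scaled for library size, the wild-type testes had 7.14, 6.61 and 7.09 CPM and the homozygous testes 12.6, 8.57 and 8.42 CPM. The heterozygous testes had 7.18, 7.71 and 8.78 CPM, the last of these above 2 of the 3 homozygous testes. Homozygous replicate 1 stood well above the other 8 testes. In CPM the homozygous testes overlapped the heterozygous but not the wild-type testes, and the heterozygous testes were above the wild-type testes. The nearest pair of heterozygous and wild-type testes differed by only 7.18 against 7.14 CPM, and in FPKM these 2 groups overlapped. Of all genes tested, 5.58% did not overlap between homozygous and wild-type testes and 5.36% between heterozygous and wild-type testes.

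Wild-type testes averaged 6.95 ± 0.295 CPM of Esr1 (SD, n = 3), heterozygous testes 7.89 ± 0.816 and homozygous testes 9.87 ± 2.38. The log2 fold change of homozygous against wild-type was 0.50 (SE 0.20, 95% interval 0.03 to 0.98). The unadjusted p of edgeR's quasi-likelihood test was 0.0397 and the p adjusted over all genes 1.0, so the difference was not called. The exact two-sided permutation test gave p = 0.1, the smallest that 3 against 3 allows. Of all genes tested in that comparison, 0% passed an adjusted p under 0.05. Without adjustment, 0.457% were higher and 0.804% lower at 0.05.

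Against heterozygous testes the Esr1 log2 fold change was 0.33 (SE 0.20, 95% interval -0.15 to 0.80), with an edgeR p of 0.149 and an exact permutation p of 0.3. Heterozygous against wild-type gave 0.18 (SE 0.15, 95% interval -0.19 to 0.54), with an edgeR p of 0.291 and an exact permutation p of 0.1. None of the 3 comparisons of Esr1 passed the threshold after adjustment. The comparison of homozygous with heterozygous testes had 0% of genes past an adjusted p under 0.05, and without adjustment 1.17% higher and 1.05% lower at 0.05. For heterozygous against wild-type these were 0%, 0.344% and 0.766%.

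The Esr1 values moved when single libraries were left out. Without homozygous replicate 1 the log2 fold change of homozygous against wild-type was 0.29, with an unadjusted edgeR p of 0.115, and that of homozygous against heterozygous was 0.11. Heterozygous against wild-type was 0.09 without heterozygous replicate 3. With the first-wave score as a covariate and all testes kept, homozygous against wild-type was 0.53, with an edgeR p of 0.00774 and an adjusted p of 0.904.

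Homozygous replicate 1 also had the most RNA of genes of the epididymal epithelium, which adjoins the testis and holds much ESR1. Crisp1, a secreted epididymal protein that coats sperm, had 883 counts there, and 0, 109 and 0 in wild-type, 28, 78 and 5 in heterozygous and 0 and 0 in the other homozygous testes. Adam7, an epididymal membrane protein, had 177 counts there and at most 8 elsewhere. Of 15 genes listed for epididymis and efferent duct, 8 had more than 3 counts in some testis, and 5 of those were highest in that one. The other 3 were not: Cst8 had 39 counts there against 494 in wild-type replicate 1, and Aqp9 and Rnase10 had their highest CPM in wild-type replicate 1 and heterozygous replicate 2. Cst8 was at 1.05 CPM in heterozygous replicate 3, of the lowest first-wave score, and at 22.9 CPM in wild-type replicate 1, of the highest. Aqp9 was at 81.5 CPM or more in every testis. Lcn8, Lcn9 and Lcn10 were at 0 in all 9.

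Summed over the 15 genes, wild-type testes had 107 to 144 CPM, heterozygous testes 100.1 to 121 and homozygous testes 117 to 165, most of it from Aqp9 at 81.5 to 115 CPM. Wild-type replicate 2, second in Crisp1, had the lowest Esr1 level of all testes, 6.61 CPM. Homozygous replicates 2 and 3, with no Crisp1 count, had 8.57 and 8.42 CPM of Esr1, above the wild-type testes. The part of this RNA in the Esr1 level was not tested.

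**Figure D3:**
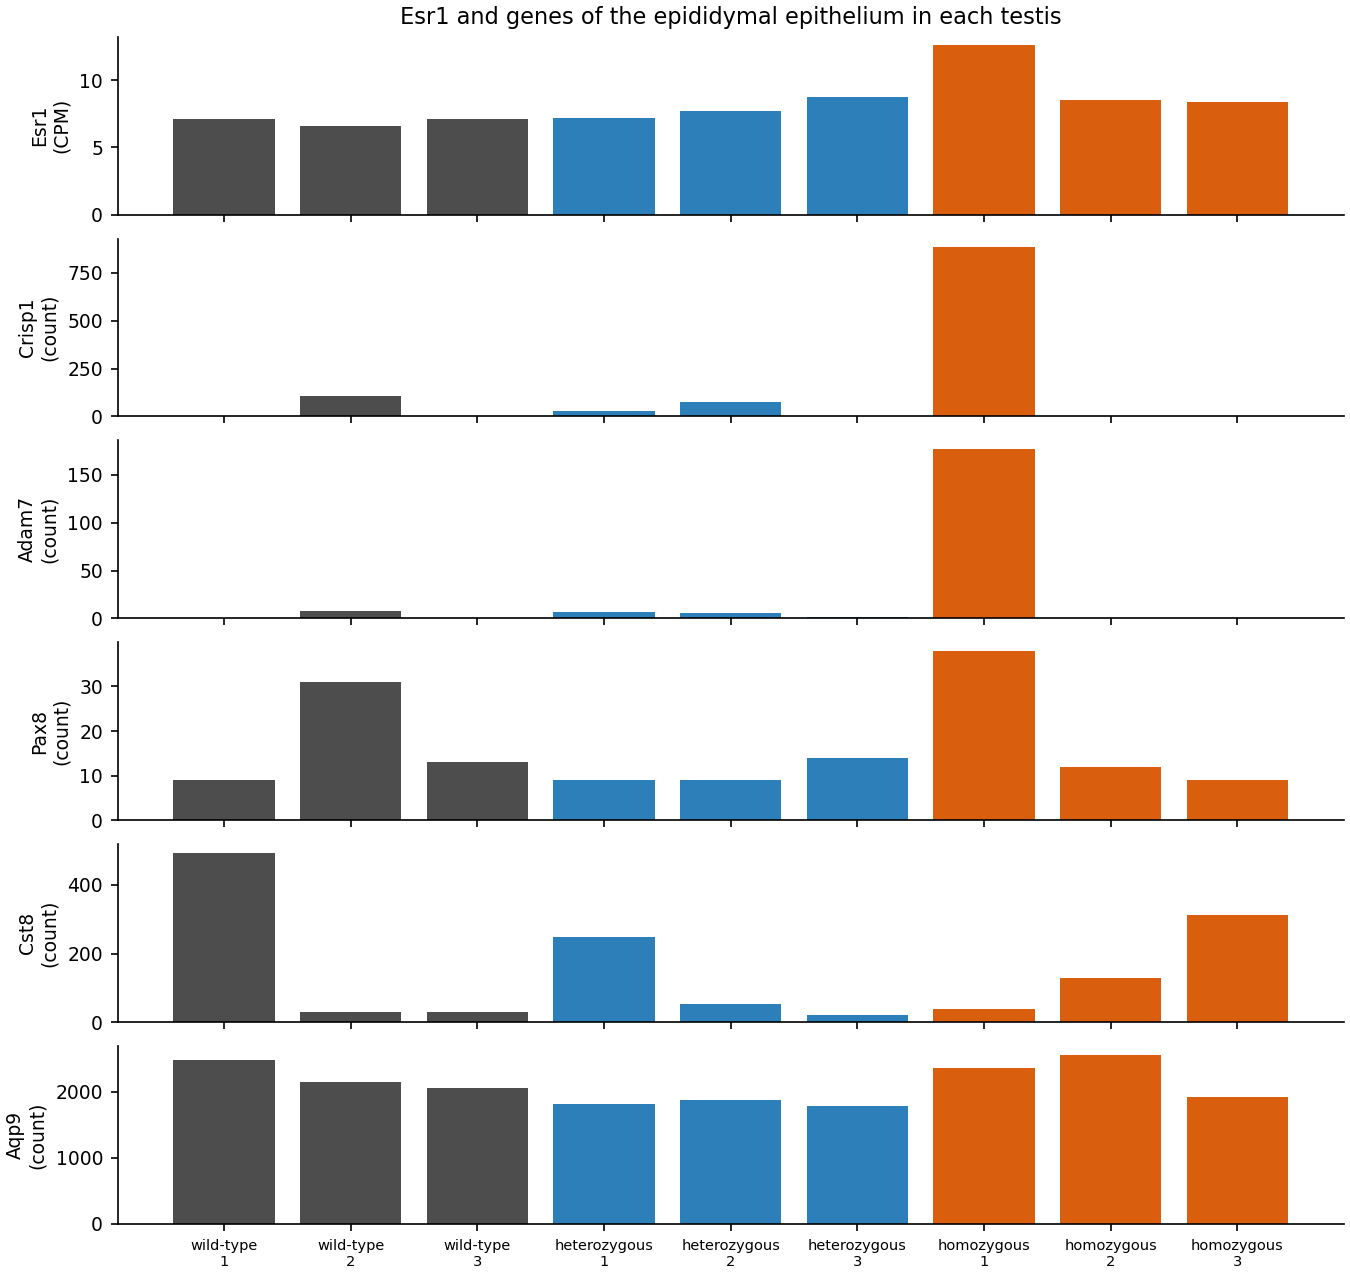
Esr1 (CPM, top) and Crisp1, Adam7, Pax8, Cst8 and Aqp9 of the epididymal list (estimated counts) as bars from 0 for each testis, coloured by genotype. Homozygous replicate 1 has the highest bar for Esr1, at 12.6 CPM, and for Crisp1, Adam7 and Pax8, but not for Cst8 and Aqp9.

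Esr2 (ENSMUSG00000021055, GRCm38 chr12:76120419-76177259, minus strand), the beta receptor, was near the limit of detection. It had 8, 12 and 13 counts in wild-type, 20, 4 and 7 in heterozygous and 9, 4 and 7 in homozygous replicates 1, 2 and 3. Every genotype overlapped with every other, and the widest spread was among the heterozygous testes. The levels were 0.529 ± 0.138 CPM (SD, n = 3) in wild-type, 0.496 ± 0.355 in heterozygous and 0.321 ± 0.137 in homozygous testes.

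For Esr2 the log2 fold change of homozygous against wild-type was -0.72 (95% interval -1.96 to 0.52), with an exact permutation p of 0.3. Against heterozygous it was -0.65 (-2.19 to 0.88), with an exact permutation p of 0.6, and it turned to 0.10 without heterozygous replicate 1. Heterozygous against wild-type was -0.07 (-1.46 to 1.33), with an exact permutation p of 0.9. Each of these intervals takes in a change of more than 2-fold in at least one direction, so a difference of that size could not be told from none at this depth. The annotated gene also holds a processed pseudogene, Gm7862, on the same strand, which was not analysed here.

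Cyp19a1 (ENSMUSG00000032274, GRCm38 chr9:54165937-54268110, minus strand) encodes aromatase, the enzyme that makes estradiol from testosterone. It had 40, 21 and 23 counts in wild-type, 21, 31 and 30 in heterozygous and 27, 25 and 26 in homozygous replicates 1, 2 and 3. All 3 genotypes overlapped, and wild-type replicate 1 had the highest count. The levels were 1.33 ± 0.456 CPM (SD, n = 3), 1.42 ± 0.418 and 1.24 ± 0.231 in the same order.

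For Cyp19a1 the log2 fold change was -0.12 (95% interval -0.91 to 0.67) for homozygous against wild-type, -0.19 (-0.96 to 0.57) for homozygous against heterozygous and 0.08 (-0.81 to 0.96) for heterozygous against wild-type. The exact permutation p-values were 0.8, 0.7 and 1. Without wild-type replicate 1 the first of these became 0.20. No difference in aromatase RNA was detected between genotypes, and the widest bounds of the intervals were -0.96 and 0.96 on the log2 scale.

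**Figure D4:**
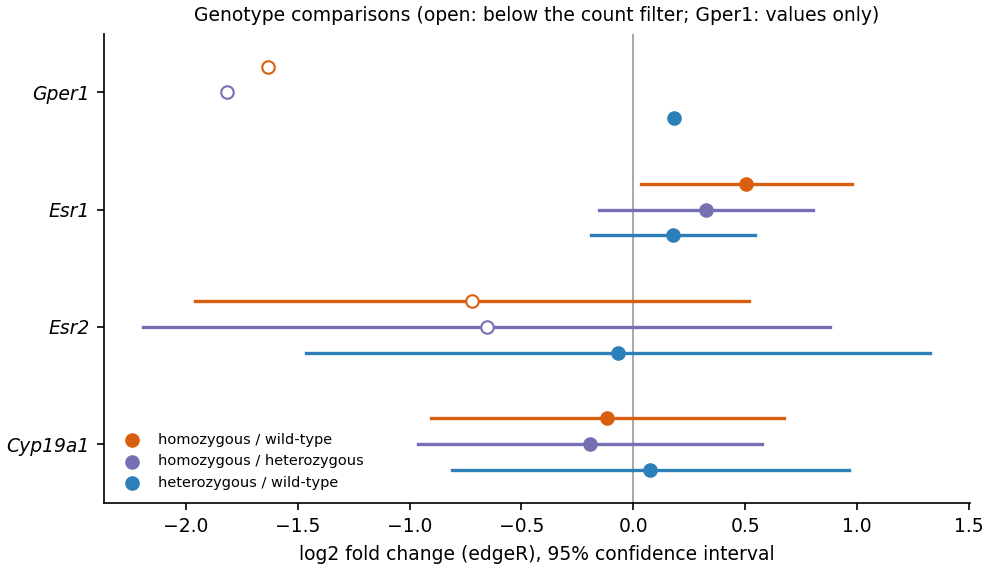
Log2 fold changes (horizontal axis) of the 4 genes in the 3 genotype comparisons, with 95% intervals from edgeR; open circles are genes under the count filter, and Gper1, selected on its values, is shown without an interval. The interval of Esr1 for homozygous against wild-type, 0.03 to 0.98, is the only one drawn that does not cross 0.

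The change over the first wave was estimated for each gene as a slope on the score, in a fit of all 9 testes with genotype as a term. Of 15771 genes tested, 18.4% were higher and 10.1% lower with the score at an adjusted p under 0.05, and none of the 4 members was among them. Gper1 had the steepest slope of the 4, -0.29 log2 per unit of score (SE 0.14, 95% interval -0.58 to 0.0041), with an edgeR p of 0.0528 and an adjusted p of 0.128. That slope comes from the libraries in which Gper1 was selected for its level by genotype. Its homozygous testes, at 4 or 5 counts, were near the limit of detection and could show little of a slope. Esr1 had -0.07 (SE 0.05, adjusted p by edgeR 0.326), Esr2 0.04 (SE 0.19, 0.893) and Cyp19a1 0.08 (SE 0.11, 0.598). The slope of Gper1 was -0.20 without heterozygous replicate 3, which had the lowest score and the highest Gper1 count. The slope of Esr1 was -0.13 without wild-type replicate 1 and -0.04 without homozygous replicate 1. The slope of Cyp19a1 was -0.04 without wild-type replicate 1, and that of Esr2 changed sign in 6 of 17 alternatives.

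The other genes of the pathway were taken as 8 lists of 95 genes, of which 93 were measured. In each genotype comparison 1 of them was higher and 1 lower at an unadjusted p under 0.05 in edgeR, and none passed an adjusted p under 0.05. These counts were over 85 tested genes, or 83 for heterozygous against wild-type, and come to 1.18% and 1.205% in each direction. Of all genes tested, 0.457% were higher and 0.804% lower for homozygous against wild-type. The shares were 1.17% and 1.05% for homozygous against heterozygous, and 0.344% and 0.766% for heterozygous against wild-type. With 1 gene in each direction, no difference from these shares can be read. The median log2 fold change of the listed genes was -0.0035 for homozygous against wild-type, beside -0.0050 for all genes.

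Ddx17, an RNA helicase that acts as a coactivator of ESR1, was the gene with the low p in both comparisons of homozygous testes. Its log2 fold change was -0.30 (SE 0.09) against wild-type and -0.23 (SE 0.10) against heterozygous testes, in comparisons that share the homozygous libraries. The adjusted p-values by edgeR were 1.0 and 0.948. The higher genes were Fdxr, the reductase that feeds electrons to mitochondrial steroidogenic enzymes, at 0.26 (SE 0.10) against wild-type, and Hsd3b6, a Leydig cell 3-beta-hydroxysteroid dehydrogenase, at 1.09 (SE 0.35) against heterozygous testes. In heterozygous against wild-type testes these were Xbp1, a transcription factor of the secretory pathway, at 0.33 (SE 0.14), and Sult1a1, a sulfotransferase, at -0.50 (SE 0.17).

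Genes of the pathway also changed along the first wave. Of 85 listed genes tested, 6 rose and 10 fell with the score at an adjusted p under 0.05 in edgeR, which is 7.06% and 11.8%, against 18.4% and 10.1% of all genes tested. The share that fell was close to that of all genes, and the share that rose was below it. The count that fell depended on scaling and on single testes. It was 25 with library totals alone, 22 without heterozygous replicate 1, 4 without either wild-type replicate 3 or homozygous replicate 3 and 3 without wild-type replicate 1, where 3 rose. Over all genes the number that fell moved in the same fits, from 1599 to 3606, 2927, 523, 608 and 515 in that order. Of the 16 genes, 5 passed in every one of 16 alternatives on the same score, Esrrb, Cyb5a, Crem and Gnai3 among them. Leaving out wild-type replicate 1 ended the call of 10, wild-type replicate 3 of 7, homozygous replicate 3 of 6, heterozygous replicate 3 of 4, homozygous replicate 1 of 3, and wild-type or homozygous replicate 2 of 2 each, while the other 2 heterozygous testes ended none. The testes of the highest scores, wild-type replicate 1 and homozygous replicate 3, also had the highest summed CPM of 9 adipose genes, 65.8 and 78.4, against 28.1 to 41.6 in the other 7, and its part in the slopes was not tested.

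In the supply of androgen to aromatase, 2 of 14 genes rose and 1 fell at an adjusted p under 0.05. Of all genes tested, 18.4% rose and 10.1% fell, and with so few genes no difference from these shares can be read. Cyp17a1, the 17-alpha-hydroxylase that makes androgens, rose by 0.94 log2 per unit of score (SE 0.21, adjusted p by edgeR 0.00491), from 4.55 CPM in the lowest testis to 96.7 CPM in the highest. Cyp11a1, which cleaves the side chain of cholesterol, rose by 0.39 (SE 0.10, adjusted p by edgeR 0.00864). Cyb5a, a cofactor of the lyase step, fell by 0.12 (SE 0.03, adjusted p by edgeR 0.0080). Cyp17a1 and Cyp11a1 each passed in 15 of 16 alternatives, all but that without wild-type replicate 1. Both genes are also among the 11 Leydig cell markers, of which 3 rose and 0 fell at an adjusted p under 0.05 in edgeR. The median slope of those 11 markers was 0.19. Star and Hsd17b3, among the same markers, had slopes of 0.23 and 0.18 that did not pass.

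Among 9 genes that interconvert or inactivate estradiol, Hsd17b12 fell (-0.11, adjusted p by edgeR 0.0430), and passed in 9 of 16 alternatives. Hsd17b2, which oxidises estradiol to estrone, had a slope of 0.41 with an adjusted p of 0.0539 by edgeR, and Hsd17b7 had -0.14 with 0.0968. Of 11 regulators of aromatase transcription, 2 rose and 2 fell. Those that rose were Crem, a cyclic AMP responsive factor of spermatids (0.18), and Prkaca, the catalytic subunit of protein kinase A (0.09). Those that fell were Creb1 (-0.12) and Fshr, the FSH receptor of Sertoli cells (-0.17). Crem passed in 16 of 16 alternatives, Prkaca and Creb1 in 12 and Fshr in 8. Nr5a1 and Lhcgr, the other upstream activators named here, had slopes of -0.05 and 0.09 that did not pass. Of all genes tested, 18.4% rose and 10.1% fell, and both lists are too short to show a difference from these shares.

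Of 17 genes of GPER and membrane estrogen signalling, none rose and 5 fell at an adjusted p under 0.05, where 18.4% of all genes rose and 10.1% fell. Among them were the G protein subunits Gnai1 (-0.12), Gnai3 (-0.10) and Gnas (-0.09) and the lipid kinase subunit Pik3ca (-0.08). The median slope of the list was -0.08, beside -0.02 over all genes tested. The number that fell was 10 with library totals alone, 8 without heterozygous replicate 1, 3 without wild-type replicate 3 and 2 without wild-type replicate 1 or homozygous replicate 3. Over all genes the number that fell also moved, from 1599 to 3606 with library totals alone and 2927 without heterozygous replicate 1. It was 523 without wild-type replicate 3, 515 without wild-type replicate 1 and 608 without homozygous replicate 3.

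Among 17 tested coactivators and corepressors, Pelp1, a scaffold of nonnuclear receptor signalling, rose by 0.13 and none fell. Hdac3 (-0.07), Ddx5 (0.06) and Ddx17 (-0.06) had unadjusted p-values under 0.05 that did not hold after adjustment. Of 13 genes that respond to estrogen in other tissues, Cxcl12 fell (-0.14) and passed in 6 of 16 alternatives. Xbp1 (-0.08), Ccnd1 (-0.09) and Igfbp4 (-0.07) did not pass after adjustment. Of all genes tested, 18.4% rose and 10.1% fell, and both lists are too short to show a difference from these shares. Pgr, the progesterone receptor and a classical target of ESR1, had 0 or 1 count in every testis. Greb1, of the genes that respond to estrogen in other tissues, ran from 3.07 to 7.19 CPM. The activity of ESR1 was not tested.

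The orphan estrogen-related receptors resemble ESR1 in sequence but do not bind estradiol. Esrra ran from 25.8 to 33.8 CPM and Esrrg from 0.245 to 0.805 CPM, and neither followed the score. Esrrb rose by 0.79 log2 per unit of score (SE 0.09, adjusted p by edgeR 1.96e-05), from 0.368 CPM in heterozygous replicate 3, the testis with the lowest score, to 5.52 CPM in wild-type replicate 1, with the highest.

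**Figure D5:**
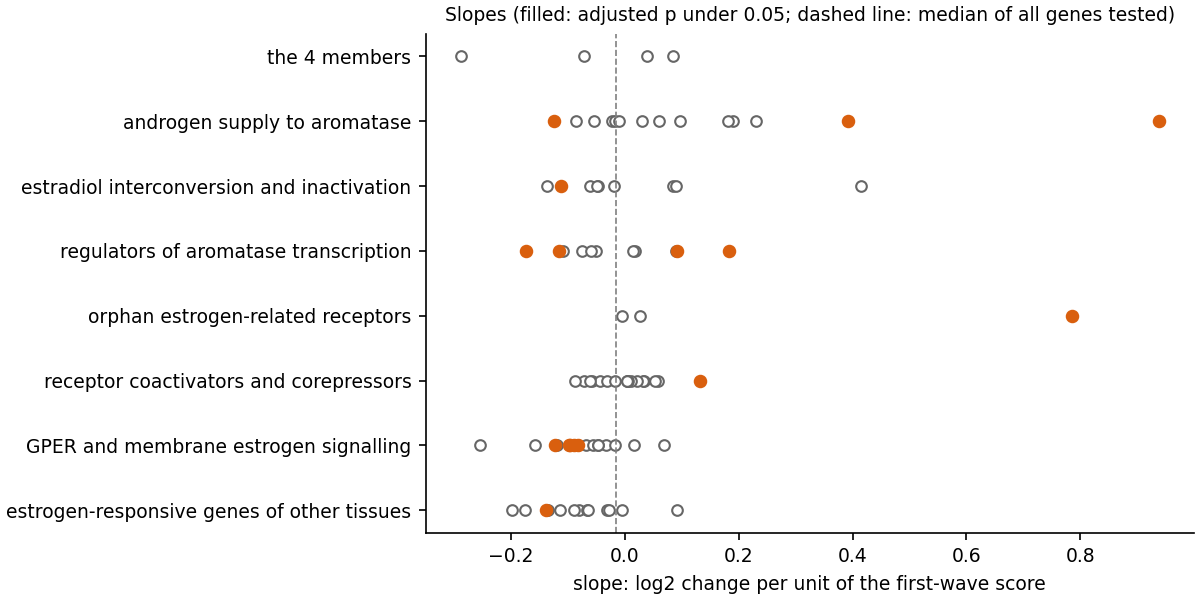
Slope of each tested gene (log2 per unit of the first-wave score, horizontal axis) for the 4 members and 7 of the 8 pathway lists; filled points have an adjusted p under 0.05 and the dashed line is the median of all genes tested, -0.02. The 4 members are open, and the furthest filled points to the right are Cyp17a1 at 0.94 and Esrrb at 0.79.

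The genes most like each member over the 9 testes were taken by Pearson's r of log2 CPM among 14474 genes with a mean of at least 1 CPM. The points share library depth, stage and genotype, so these values are a description. For Gper1 they were Gpr137c (0.94), Vps16 (0.93), Araf (0.93), Ankrd50 (0.92) and Ddx17 (0.92). For Esr2 they were Gm45062 (0.95), Brca1 (0.94), Pbxip1 (0.92), Phf8 (0.91) and Oga (0.91). For Cyp19a1 they were Rgs19 (0.92), Arsg (0.91), Flywch2 (0.90), Pramel12 (0.88) and Tyk2 (0.87). These are the highest of 14474 values over 9 testes, so a high r follows in part from the picking. Gper1 and Esr2 rested on 4 to 22 counts a library. For Gper1, Esr2 and Cyp19a1, r was not taken again with a testis left out.

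For Esr1 the closest genes were Cpq, a secreted peptidase (0.98), Mettl7a1 (0.93), Itpripl2 (0.87), Wfdc6a (0.87) and Cyba (0.87). Over the 8 testes without homozygous replicate 1 these were 0.92, 0.68, 0.76, 0.67 and 0.91, so that Cpq, Mettl7a1, Itpripl2 and Wfdc6a had a lower r without that testis and Cyba a higher one.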

How the data were processed

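RNA sequencing of whole testes was analysed, with 3 samples for each of 3 genotypes, grouped by the labels. The authors deposited 1 table with FPKM (2 decimals) and estimated counts per testis. The estimated counts are not scaled for depth, and 89.2% of them were whole. The submitters' processing notes name the build mm39, fastp 0.18.0, StringTie 1.3.1 and DESeq2. The aligner and the strand setting are not given in the sources used here. The table has no coordinates, and those printed are from the GENCODE annotation of GRCm38.

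Rounded counts were used. In R 4.3.3, each pair of genotypes was fitted with edgeR 4.0.16 (filterByExpr, TMM scaling, quasi-likelihood test, two-sided, Benjamini-Hochberg adjustment over all genes). Genes under the filter were taken from the fit without it and have no adjusted p. Levels are TMM-scaled CPM, with a prior count of 1 on the log scale. Slopes came from 1 fit of 9 libraries with genotype and score. Alternatives used DESeq2 1.42.0, its size factors, limma 3.58.1 on log2(FPKM + 0.1) and log2(FPKM + 1), other filters, the replicate block, the score as a covariate and each library left out. Scripts were tested on simulated data. Named genes were the members, listed pathway genes with an unadjusted p under 0.05 (at most 5 a list) and the 5 genes most like each member by r. Star, Hsd17b3, Nr5a1, Lhcgr, Pgr, Greb1, Esrra, Esrrg, 3110082I17Rik and the epididymal genes printed singly fall outside this rule: they were chosen once values had been seen. Members and lists were chosen with earlier results of these data known. Some genes that the rule names are not reported here. Intervals cover the spread between these samples only.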

Additional observations from a re-analysis of the deposited data

How the results depend on the processing

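Of 135 alternative fold changes of Esr1, Esr2 and Cyp19a1, 124 kept their direction, as did 61 of 68 alternative slopes of the 4 members. None passed the threshold, and the lowest adjusted p was 0.625 for the fold changes and 0.0743 for the slopes. Gper1, described without a test, ran from -1.86 to -0.21 against wild-type, from -2.06 to -0.25 against heterozygous testes, and from -0.31 to 0.46 for heterozygous against wild-type, the smallest values against either group being those on log2(FPKM + 1). Leaving out 1 testis moved Cyp19a1 from -0.26 to 0.20 (homozygous against wild-type) and from -0.0737 to 0.40 (heterozygous against wild-type), and Esr2 from -0.99 to 0.10 (homozygous against heterozygous) and from -0.82 to 0.27 (heterozygous against wild-type). Esr2 ran from -0.94 to -0.39 (homozygous against wild-type) and Cyp19a1 from -0.42 to -0.03 (homozygous against heterozygous). Slopes ran from -0.18 to 0.22 for Esr2 and from -0.0442 to 0.18 for Cyp19a1 when 1 testis was left out. The slope of Esr2 also turned to -1.42 with a pachytene spermatocyte score, -0.0099 with no genotype term and -0.0195 with limma on log2(FPKM + 0.1). With the replicate block it was -0.0271, and Esr1 in homozygous against wild-type testes was 0.48. Same-numbered testes had deviations correlated from -0.81 to 0.86. Wild-type replicate 1 and homozygous replicate 3, of different number and close score, had 0.86. Such correlations also carry the stage, so whether the numbers pair the testes could not be told. The block changed no call of a member. DESeq2 called 1 gene in homozygous against wild-type and 5 in homozygous against heterozygous testes, none of them a member. Genes lower with the score, 1599 by edgeR, were 3606 with library totals only and 2606 with limma, and 515 to 2927 when 1 testis was left out. The median slope of all genes was -0.0156, -0.0091 with DESeq2 size factors and -0.0495 with library totals. The cause of these shifts was not tested. Few counts limit Gper1 and Esr2.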
